A study of Mus musculus with 8 samples.

Results

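Pericytes are the mural cells that wrap brain capillaries, sharing a basement membrane with the endothelium they cover. They take part in forming and keeping the blood-brain barrier, in vessel stability and in the control of capillary width. In the hypothalamic paraventricular nucleus (PVN), a densely vascularized nucleus that starts the hormonal stress response, they lie beside the capillaries that supply its neurosecretory neurons. The pericytes described here are the cells that the authors' annotation of single-cell RNA-seq from the mouse PVN labels Pericytes. They were 1432 of 35672 cells, or 4.01%, and ranked 8 of 17 cell types from the most numerous.

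Pdgfrb (a growth factor receptor), Kcnj8 (a potassium channel subunit) and Vtn (vitronectin) are usual markers of brain pericytes. The table used here gives each cell's labels, counts and scores, while transcript levels of individual genes were not analysed here. The label was therefore not checked against these markers. The annotation holds 3 other vascular labels: Endothelial with 3215 cells, Vascular with 401 and Mixed_Endothelial with 351. These names are kept as deposited. A shift in pericyte number between libraries cannot be told apart from a shift in how many pericytes came through dissection and dissociation.

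The 8 libraries came from C57BL/6 mice, and each pairing of sex and cohort was represented by 1 control and 1 stressed library. Baseline cohort controls were unstressed and 10 weeks old, and the baseline ARS mice of that age had 15 min of acute restraint stress (ARS). The chronic mild stress (CMS) cohort was 11 weeks old: its ARS mice had 21 days of CMS before the same restraint, and its controls are labelled unstressed. In both cohorts the stressed mice were taken 5 h after restraint. How many animals went into a library is not stated by the labels. "Stressed" below means ARS in the baseline cohort and CMS with ARS in the CMS cohort. Cohort differs in age as well, and the contrast of cohorts sets both of its libraries, control and stressed, against their baseline counterparts.

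Libraries held 3523 to 5777 cells and 9924892 to 15760435 unique molecular identifiers (UMIs, each standing for 1 captured transcript). Of 34942 distinct cell barcodes, 722 occurred in more than 1 library, and 45 pericytes (3.14%) carried such a barcode against 4.07% of all cells. A barcode that was a pericyte in 2 libraries was found 0 times. Because no group had a second library, effects were estimated over libraries with sex, cohort and exposure as additive terms, and the p-values reflect only how far these libraries spread, which may be technical.

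The pericyte share of cells ranged 1.51-fold between libraries. Among controls it was 4.07% in the female baseline library and 4.36% in the male baseline library. The corresponding CMS cohort controls had 3.22% and 3.31%. Among stressed libraries, pericytes made up 3.96% of the female baseline and 4.86% of the male baseline cells. In the CMS cohort the stressed values were 4.82% for females and 3.38% for males. The low libraries were all from the CMS cohort, and the remaining library of that cohort, from stressed females, lay near the top.

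Each share rested on 119 to 240 pericytes. The exact (Clopper-Pearson) 95% interval of the highest share, in the male baseline ARS library, ran from 4.20% to 5.58%. That of the lowest, in the female CMS cohort control, ran from 2.73% to 3.78%, so these intervals did not overlap. Intervals cover counting error only. Over the 8 libraries the share averaged 3.996% ± 0.655 (SD, n = 8), while sampling of cells alone would give an SD of 0.296.

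Counted against endothelial cells, the vessel lining they cover, pericytes varied less between libraries. Per 100 cells labelled Endothelial, there were 43.7 pericytes in the female and 48.5 in the male baseline control library. The baseline ARS libraries had 46.2 in females and 51.7 in males. The CMS cohort controls had 39.1 in each sex, and their stressed counterparts had 44.1 in females and 43.6 in males. The mean was 44.5 ± 4.31 (SD, n = 8), close to the SD of 4.08 that counting alone would give. This applies to all cells of both labels. Among cells of 1000 to 2000 UMIs only, the ratio ran from 80.1 to 172 per 100, with a coefficient of variation of 24.8%, above the 16.4% of the share and the 9.68% of the ratio over all cells.

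**Figure D1:**
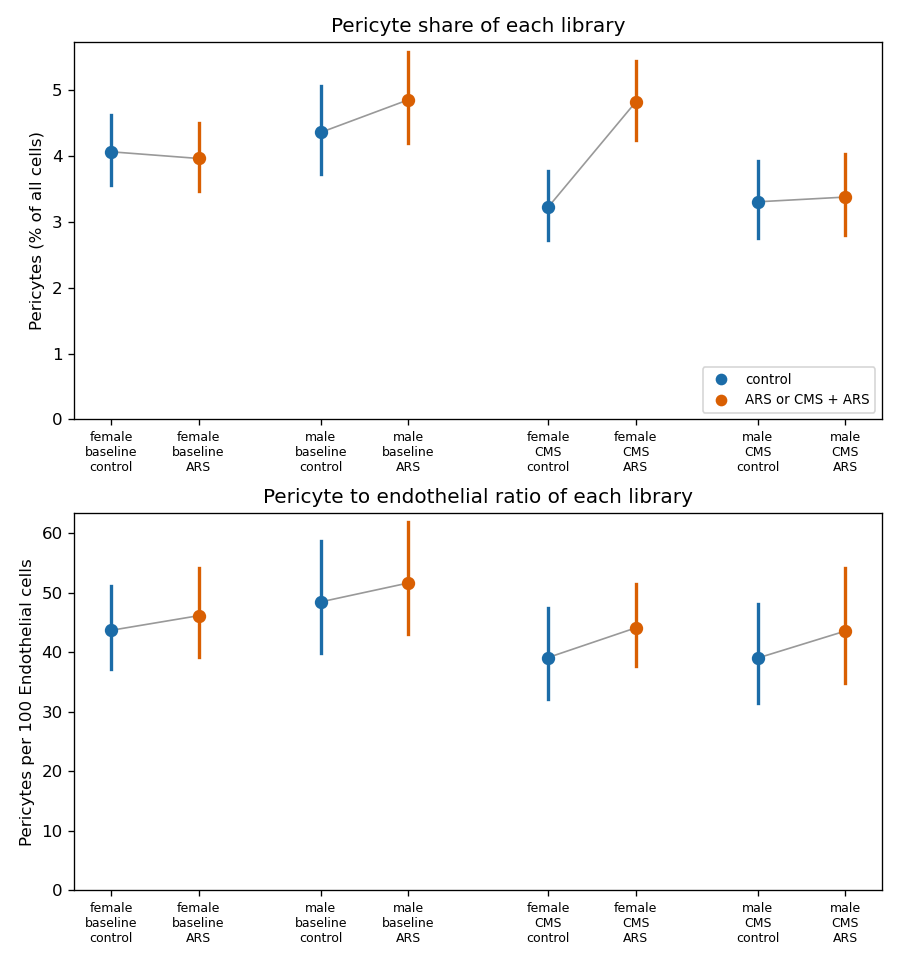
Pericytes as a percent of all cells (top) and per 100 Endothelial cells (bottom) in each of the 8 libraries, with 95% counting intervals as bars and lines joining the control (blue) and stressed (orange) library of a pair. The share runs from 3.22% to 4.86% with the female CMS ARS library at 4.82%, and the ratio runs from 39.1 to 51.7.

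With all 3 other vascular labels as the denominator the spread narrowed again. Pericytes per 100 Endothelial, Mixed_Endothelial and Vascular cells ranged from 33.9 to 38.5, with a coefficient of variation of 5.002%. As a percent of the 4 vascular labels together they ranged from 25.3% to 27.8%, while those 4 labels together ranged from 12.1% to 17.9% of all cells. The Vascular cells (21 to 78 per library) and Mixed_Endothelial cells (14 to 72) varied far more, with coefficients of variation of their share of 41.9% and 61.3%, against 16.4% for pericytes and 10.8% for Endothelial cells.

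Pericyte and Endothelial numbers moved together across libraries. Each was expressed per 100 cells outside the 4 vascular labels, on a log2 scale, so both values share a denominator. Pearson's r was 0.892 (exact permutation p = 0.00161, n = 8, adjusted p = 0.00484 over 3 relations) and Spearman's rho was 0.881 (exact permutation p = 0.00724, adjusted p = 0.0217). Without the 2 libraries farthest from the median, both of stressed mice of the CMS cohort, r was 0.940 (exact permutation p = 0.00694). A library with many endothelial cells thus also held many pericytes. By pericyte number, 3 CMS cohort libraries sat at 3.69 to 3.84 per 100 non-vascular cells and the other 5 libraries at 4.66 to 5.91; within a cohort, 4 libraries are too few for a correlation.

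**Figure D2:**
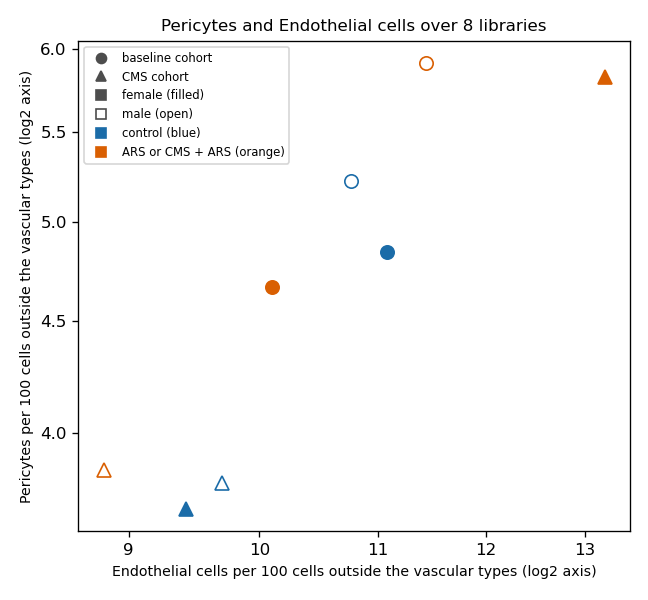
Pericytes (vertical) against Endothelial cells (horizontal), each per 100 cells outside the vascular labels on log2 axes, 1 point per library. Points rise together (r = 0.892), and 3 of the 4 CMS cohort libraries lie lowest in pericytes.

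The relation with Vascular cells was r = 0.887 (exact permutation p = 0.00781, n = 8, adjusted p = 0.0117; rho = 0.762, exact permutation p = 0.0368, adjusted p = 0.0458). Without the 2 libraries farthest from the median r was 0.795 and no longer passed the test (exact permutation p = 0.0792, n = 6, adjusted p = 0.119). With Mixed_Endothelial cells r was 0.670 (exact permutation p = 0.0779, n = 8) and rho was 0.738 (exact permutation p = 0.0458, adjusted p = 0.0458), and r was 0.568 (exact permutation p = 0.206) without the 2 farthest libraries.

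The first comparison asked whether stress exposure changed pericyte abundance. The pericyte share averaged 3.74% ± 0.561 (SD, n = 4) in control and 4.25% ± 0.715 (SD, n = 4) in stressed libraries, and the groups overlapped. Within the matched pairs of one sex and cohort, the stressed share was 0.975 times the control share in baseline females (95% counting interval 0.814 to 1.17) and 1.11 times in baseline males (0.906 to 1.37). In the CMS cohort it was 1.49 times in females (1.22 to 1.83) and 1.02 times in males (0.798 to 1.31). Only the CMS female pair differed beyond counting error, and the Endothelial share of the same pair was 1.33 times its control.

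The stress difference in share did not pass the test over libraries. The log2 fold change was 0.20 with a standard error (SE) of 0.23 (edgeR quasi-likelihood test, adjusted p = 0.944 over 17 types), and the 95% interval of the fold ran from 0.828 to 1.58. In this contrast 0% of the 17 types passed an adjusted p of 0.05. Before adjustment 0 types had p under 0.05, and the alternatives DESeq2 and limma called 0. The interaction terms, which ask whether the stress difference depended on sex or cohort, were 0.19 (SE 0.49, adjusted p = 0.871) and 0.27 (SE 0.53, adjusted p = 0.918). Of 17 types 0% were called in each, 2 and 1 had p under 0.05 before adjustment, and DESeq2 and limma called 0. When the library of stressed CMS cohort females was left out, the cohort interaction was -0.084 and the sex interaction -0.17, so the sign of both rested on that library.

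Per endothelial cell, stressed libraries held slightly more pericytes than their controls in 4 of 4 pairs. The ratio of stressed to control was 1.06 in baseline females (95% counting interval 0.847 to 1.32) and 1.07 in baseline males (0.823 to 1.38). It was 1.13 in CMS cohort females (0.883 to 1.44) and 1.12 in CMS cohort males (0.828 to 1.50). Each of these intervals included 1. Of the 16 types set against endothelial cells, 6.25% were higher in all 4 pairs, which is 1 type, the pericytes themselves. Signs drawn at random over 4 pairs would give that same percent.

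Group means of the ratio were 42.6 ± 4.49 (SD, n = 4) in control and 46.4 ± 3.69 (SD, n = 4) in stressed libraries, with overlap. The edgeR log2 fold change per endothelial cell was 0.13 (SE 0.13, adjusted p = 0.985), with a fold interval from 0.877 to 1.36 and 0% of 16 types called (0 before adjustment, and 0 by DESeq2 or limma). Exact sign-flip permutation, two-sided, over 4 pairs gave p = 0.125, the smallest p that 4 pairs allow. Interactions with sex and with cohort were 0.0034 (SE 0.26, adjusted p = 0.990) and 0.081 (SE 0.30, adjusted p = 0.980), again with 0% of types called.

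Female and male libraries had similar group means, but single pairs differed in share in opposite directions. The female share was 1.43 times the male share in the CMS ARS pair (95% counting interval 1.15 to 1.77) and 0.816 times in the baseline ARS pair (0.676 to 0.986). In the control pairs it was 0.932 times (0.765 to 1.14) in the baseline and 0.975 times (0.771 to 1.23) in the CMS cohort. Per endothelial cell the female to male ratio was 0.894 to 1.01 over the 4 pairs, and each counting interval included 1. The share averaged 4.02% ± 0.652 (SD, n = 4) in females and 3.97% ± 0.759 (SD, n = 4) in males, a log2 difference of 0.026 (SE 0.24, edgeR adjusted p = 0.960, fold interval 0.736 to 1.41), where 5.88% of 17 types were called. Pericytes per 100 Endothelial cells averaged 43.3 ± 2.96 (SD, n = 4) and 45.7 ± 5.54 (SD, n = 4). That log2 difference was -0.073 (SE 0.13, edgeR adjusted p = 0.880, fold interval 0.764 to 1.18), with 0% of 16 types called and 2 with p under 0.05 before adjustment. Neither DESeq2 nor limma called a type (0 each). The sign of the sex difference in share turned when the female CMS ARS library was left out (-0.13).

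The baseline and CMS cohorts were compared next. The share averaged 4.31% ± 0.400 (SD, n = 4) in baseline and 3.68% ± 0.760 (SD, n = 4) in CMS cohort libraries, a log2 difference of -0.23 (SE 0.24, edgeR adjusted p = 0.501, fold interval 0.614 to 1.18; 17.6% of 17 types called). Per endothelial cell the CMS cohort was lower in each of 4 matched pairs, at 0.806 to 0.956 times the baseline library, and 31.2% of the 16 types were lower in all 4 pairs. Means were 47.5 ± 3.39 (SD, n = 4) and 41.5 ± 2.75 (SD, n = 4) pericytes per 100 Endothelial cells. The log2 difference was -0.19 (SE 0.13, edgeR adjusted p = 0.375, fold interval 0.703 to 1.09), and the exact sign-flip permutation over 4 pairs gave p = 0.125.

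Both other vascular labels fell against endothelial cells in that contrast. Vascular cells fell by 0.93 on the log2 scale (edgeR adjusted p = 0.0175) and Mixed_Endothelial cells by 1.68 (adjusted p = 0.0014), the 2 types that make up the 12.5% called. With these labels added to the denominator the pericyte cohort difference was 0.030 in place of -0.19, so its direction turned with the choice of denominator.

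Pericytes held few transcripts per cell, and within a narrow range. Their median was 1501.5 UMIs per cell (interquartile range 1267 to 1753.5), the third lowest of the 17 types pooled and in 8 of 8 libraries, after Neurons_mixed and Astrocytes and before Microglia. Control medians were 1570 and 1521 in the female and male baseline libraries and 1405 and 1681 in those of the CMS cohort. Stressed medians were 1553 and 1519 in the baseline and 1356 and 1414 in the CMS cohort, again female first. The mean of library medians was 1502 ± 106 (SD, n = 8).

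Between 1000 and 2000 UMIs lay 1156 pericytes (80.7%), while 119 lay below and 157 (11.0%) above. The coefficient of variation of UMIs was 28.5% over all pericytes, the smallest of the 17 types pooled, with Vascular cells next at 29.0% and Mixed_Endothelial cells at 34.1%. Within libraries it was 23.9% to 31.6% for pericytes and 62.2% to 71.4% for Endothelial cells. Pericytes had the lowest coefficient of variation of all types in 3 of 8 libraries, and a lower one than Vascular cells in 3 of 8. Above 2000 UMIs were 54.0% of Endothelial, 90.5% of Vascular and 98.9% of Mixed_Endothelial cells.

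**Figure D3:**
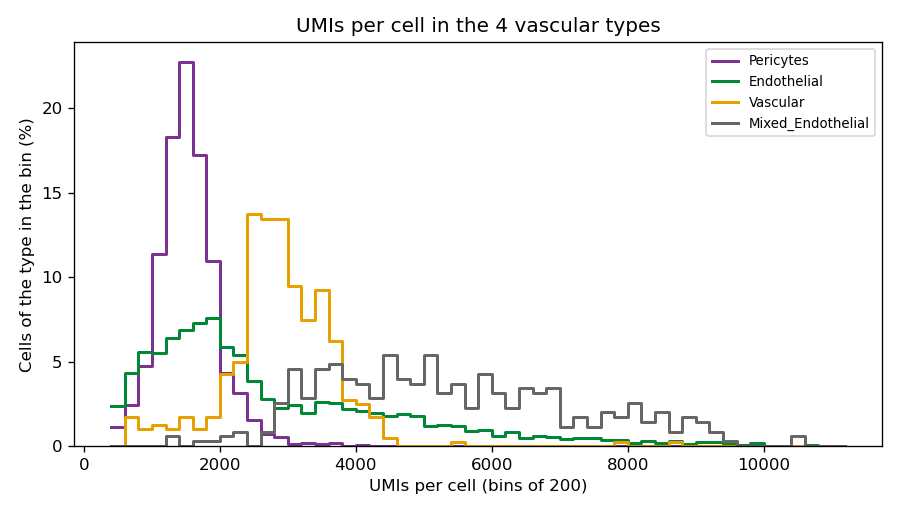
Distribution of UMIs per cell (bins of 200 UMIs, as a percent of each type's cells) for the 4 vascular labels, all libraries pooled. Pericytes form 1 narrow peak with 80.7% of cells between 1000 and 2000 UMIs, whereas 54.0% of Endothelial cells lie above 2000.

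Within libraries, pericytes held fewer UMIs and genes than each of the other vascular labels. Endothelial medians averaged 2163 ± 285 UMIs (SD, n = 8), 1.43-fold above pericytes. Vascular medians averaged 2847 ± 194 (SD, n = 8), 1.90-fold above, and Mixed_Endothelial medians 5171 ± 612 (SD, n = 8), 3.43-fold above. Each difference held in 8 of 8 libraries (exact two-sided sign-flip permutation p = 0.0078125, the smallest that 8 libraries allow, adjusted p = 0.00879 over 9 comparisons). The cell types are the authors' clusters, made from the same cells' transcripts.

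The number of genes detected followed the UMIs. Pericytes had a median of 931 genes per cell, and library medians averaged 933 ± 59.6 (SD, n = 8). Endothelial cells averaged 1239 ± 118 (SD, n = 8), Vascular cells 1379 ± 73.9 (SD, n = 8) and Mixed_Endothelial cells 2391 ± 203 (SD, n = 8), which were 1.33-fold, 1.48-fold and 2.56-fold above pericytes. Each was higher in 8 of 8 libraries (exact sign-flip permutation p = 0.0078125, adjusted p = 0.00879). Within a library, the Spearman correlation of UMIs and genes across pericytes was 0.947 to 0.984, a description only.

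Within a window of depth the gene numbers drew close. Among cells of 1000 to 2000 UMIs (92 to 191 pericytes and 88 to 192 Endothelial cells per library), pericytes had 928 ± 46.1 genes and Endothelial cells 961 ± 13.4 (SD, n = 8 libraries each). The log2 difference was -0.052, lower in 5 of 8 libraries (exact sign-flip permutation p = 0.09375, adjusted p = 0.141 over the comparisons in that window). That window held at most 7 Vascular and 4 Mixed_Endothelial cells in a library, too few to compare. Among cells with a doublet score of at most 1, the order turned. Pericytes were then higher than Endothelial cells by 0.14 in log2 UMIs (exact sign-flip permutation, adjusted p = 0.0234) and 0.075 in log2 genes (adjusted p = 0.0281). That filter left out 64.1% of Endothelial cells and 49.7% of pericytes. Across pericytes the score rose with UMIs (Spearman correlation 0.409 to 0.565 within libraries), so the filter also selected on depth. The part of depth in this turn was not tested. Over the alternatives tried the adjusted p ranged from 0.0100 to 0.0234 for UMIs and from 0.0100 to 0.141 for genes.

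Endothelial cells were of mixed depth by cluster. Endothelial_1 had a median of 1499 UMIs and 944 genes, next to the pericytes, while Endothelial_3 had 2678 UMIs and Endothelial_2 3973. Endothelial_1 made up 35.3% to 51.6% of Endothelial cells in a library. Per 100 Endothelial_1 cells there were 76.0 to 146 pericytes, with the highest value in the male baseline ARS library and the other 7 at 97.6 or below. Restricted to 1000 to 2000 UMIs in both types, the pool held 107 pericytes per 100 Endothelial cells, and the stressed to control ratio was 1.17 and 1.69 in baseline females and males and 1.24 and 0.854 in CMS cohort females and males. In that window the stressed library was thus higher in 3 of 4 pairs.

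**Figure D4:**
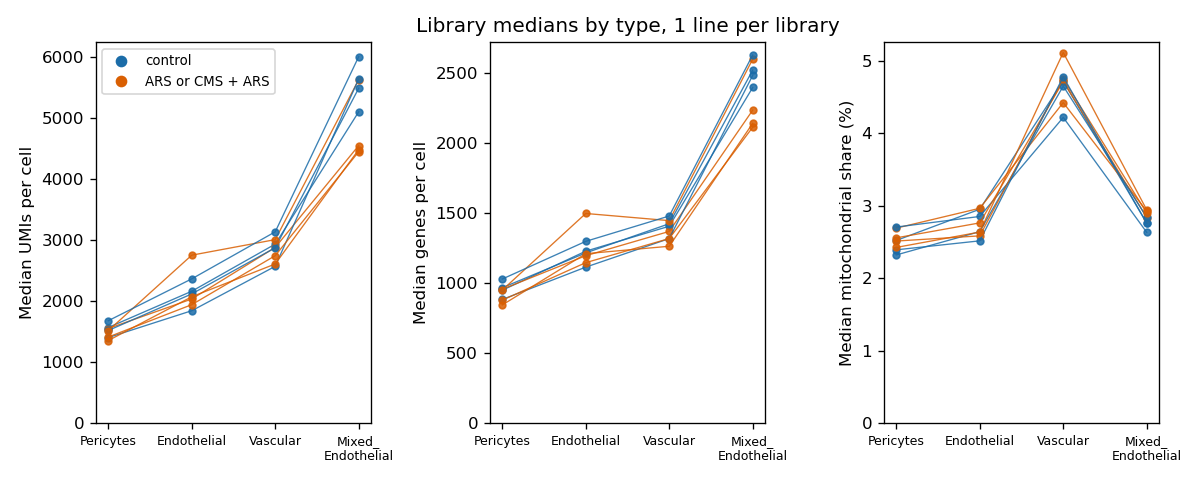
Library medians of UMIs, genes and mitochondrial percent in cells of the 4 vascular labels, with 1 line joining the values of each library. Pericytes are lowest in UMIs and genes in each of the 8 libraries, and Vascular cells are highest in mitochondrial percent, averaging 4.67%.

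The mitochondrial share of transcripts was low in pericytes, with a pooled median of 2.53%, the third lowest of 17 types after Microglia and Macrophages. Library medians averaged 2.52% ± 0.136 (SD, n = 8). Endothelial cells were at 2.74% ± 0.170 (SD, n = 8), a pericyte difference of -0.223 percentage points, and Vascular cells were at 4.67% ± 0.263 (SD, n = 8), a difference of -2.16 points; both differences held in 8 of 8 libraries (exact sign-flip permutation p = 0.0078125, adjusted p = 0.00879). Mixed_Endothelial cells were at 2.83% ± 0.104 (SD, n = 8), higher in 7 of 8 libraries (exact sign-flip permutation p = 0.015625, adjusted p = 0.0156), and with means in place of medians that difference shrank to -0.0311 points (adjusted p = 0.875; adjusted p over its alternatives 0.0156 to 0.875).

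Within a window of depth the gap to Endothelial cells was wider. The window held 80.7% of pericytes but 33.7% of Endothelial cells, and the part of Endothelial cluster make-up in this was not tested. Among cells of 1000 to 2000 UMIs, pericytes were at 2.44% ± 0.142 and Endothelial cells at 2.88% ± 0.210 (SD, n = 8 libraries each). Pericytes were lower in 8 of 8 libraries, with a difference of -0.439 points (exact sign-flip permutation p = 0.0078125, adjusted p = 0.0234). A mitochondrial share above 10% was found in 33 pericytes (2.30%), whose median was 1823 UMIs against 1494 in the others. Endothelial_1, of pericyte-like depth, had a median of 3.01%.

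Across conditions, depth of pericytes did not pass a test. Median UMIs differed by -0.080 (log2, SE 0.10, limma adjusted p = 0.999 over 16 types) between stressed and control, by -0.060 (adjusted p = 0.654) between female and male and by -0.079 (adjusted p = 0.578) between CMS and baseline cohorts, where 0%, 0% and 18.8% of types were called. Genes per cell differed by -0.077 (SE 0.080, limma adjusted p = 0.887), -0.074 (adjusted p = 0.488) and -0.077 (adjusted p = 0.515) in the same contrasts, with 0%, 6.25% and 25% of types called. Before adjustment, 1 type had p under 0.05 in UMIs for stress, 1 for sex, and 0 in genes for stress; limma with trend and robust moderation called 0 in each of these.

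The mitochondrial share of pericytes stood apart by cohort, though not past the threshold. Baseline library medians were 2.52% in the female and 2.71% in the male control, and 2.69% and 2.56% in the female and male ARS libraries. CMS cohort medians were 2.32% and 2.39% in the female and male controls and 2.51% and 2.43% in the stressed libraries. The cohorts did not overlap, which held for 25% of the 16 types. The difference was -0.206 percentage points (SE 0.0749, limma adjusted p = 0.132, with 18.8% of types called), and its adjusted p ranged from 0.0330 to 0.338 over the alternatives tried. It was not particular to pericytes. Endothelial medians were 2.76% to 2.97% in the baseline and 2.52% to 2.64% in the CMS cohort, a called difference of -0.288 points (limma adjusted p = 0.0435). Vascular and Mixed_Endothelial cells differed the other way, by 0.304 and 0.0719 points (limma adjusted p = 0.215 and 0.310).

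Neither stress nor sex moved the mitochondrial share of pericytes past the test. The stress difference was 0.0615 points (SE 0.0749, limma adjusted p = 0.673) and the sex difference -0.0084 (adjusted p = 0.963). Of 16 types, 0% were called in each contrast, 1 had p under 0.05 before adjustment in each, and trend and robust moderation called 0.

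The deposited doublet score, which rises with the chance that a barcode held more than 1 cell, was low in pericytes. It was exactly 0 in 588 pericytes (41.1%), whose median was 1264 UMIs, while the 844 with a score above 0 had a median of 1635. The Spearman correlation of the score with UMIs across pericytes was 0.409 to 0.565 within libraries, a description only. Library means of the score averaged 0.958 ± 0.186 (SD, n = 8) in pericytes. They averaged 1.12 ± 0.0775 in Endothelial cells (pericytes lower in 7 of 8 libraries), 1.18 ± 0.207 in Vascular cells (8 of 8) and 2.60 ± 0.151 in Mixed_Endothelial cells (8 of 8; SD, n = 8 each). These labels were deeper than pericytes. Endothelial_1, of pericyte-like depth, averaged below pericytes, at 0.771 ± 0.0982 (SD, n = 8).

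Stressed libraries of the CMS cohort stood out by this score. A score of 0 was given to 56.7% of pericytes in the female and 56.3% in the male CMS ARS library, against 28.8% to 43.8% in the other 6 libraries. Other cells of those 2 libraries had a score of 0 in 28.4% and 28.9%, within 19.97% to 28.9% over all libraries, and Endothelial cells in 33.8% and 36.6%. Pericyte UMI medians of these libraries (1356 and 1414) were among the 3 lowest, and the part of depth in this difference was not tested. The stress difference in the mean score was -0.171 (SE 0.0975, limma adjusted p = 0.540), sex gave -0.0863 (adjusted p = 0.574) and cohort -0.178 (adjusted p = 0.310). Of 16 types, 0% were called in each (1, 2 and 3 with p under 0.05 before adjustment), and trend and robust moderation called 0, 0 and 1.

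Cell-cycle scores of pericytes were near 0. The mean of library means was 0.00586 for the S-phase score and -0.00603 for the G2/M score. Endothelial cells had 0.0100 and -0.00444, Vascular cells -0.00245 and -0.0170, and Mixed_Endothelial cells 0.0101 and -0.00545. Pericytes scored above Vascular cells on both in 8 of 8 libraries, and below Endothelial cells in 7 of 8 libraries for S and 4 of 8 for G2/M. These scores come from the transcripts that made the clusters and were not tested.

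A single pericyte stood outside the range. In the female CMS ARS library, 1 cell of Pericytes_1 had a G2/M score of 1.26, rank 5 from the highest of all 35672 cells, and the highest S score of any pericyte, 0.575. It had 2088 UMIs, 1337 genes and a doublet score of 0. The next pericyte had a G2/M score of 0.193, so 1 of 1432 pericytes lay above 0.2, and 0 cells of the other 3 vascular labels did. Its selection followed from its value.

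The annotation divides pericytes into 2 clusters of very unequal size, Pericytes_1 with 1369 cells and Pericytes_2 with 63. The control libraries held 4 (female baseline), 5 (male baseline), 8 (female CMS cohort) and 10 (male CMS cohort) Pericytes_2 cells. The stressed libraries held 5, 7, 12 and 12 in the same order. As a percent of pericytes this was 1.77%, 3.11%, 5.48% and 8% in controls and 2.18%, 3.76%, 5% and 10.1% in stressed libraries. Each library of the CMS cohort was above each baseline library, and males were above females in each of the 4 matched pairs.

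**Figure D5:**
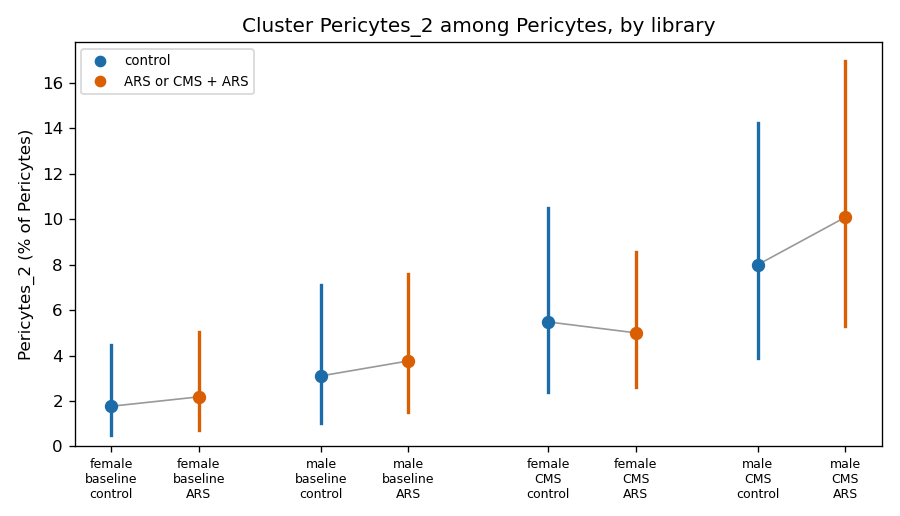
Pericytes_2 cells as a percent of Pericytes in each library, with exact 95% counting intervals as bars. The 4 CMS cohort libraries (5% to 10.1%) lie above the 4 baseline libraries (1.77% to 3.76%), and the intervals are wide.

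Pericytes_2 averaged 2.71% ± 0.899 (SD, n = 4) of pericytes in the baseline and 7.14% ± 2.36 (SD, n = 4) in the CMS cohort. Among 24 clusters that share a type with another cluster, 29.2% had cohorts that did not overlap in this measure. In the pairs the log2 odds were 1.16 to 1.60 higher in the CMS cohort (mean 1.40, exact sign-flip permutation p = 0.125, the smallest for 4 pairs). By sex the percents were 3.61 ± 1.90 in females and 6.24 ± 3.36 in males (SD, n = 4 each; exact sign-flip permutation p = 0.125), and 8.33% of the 24 clusters were lower in females in all 4 pairs.

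As a share of all cells, Pericytes_2 were 0.119% ± 0.0503 (SD, n = 4) in the baseline and 0.256% ± 0.0677 (SD, n = 4) in the CMS cohort, and here the ranges overlapped slightly (0.0720% to 0.183% and 0.177% to 0.341%). The edgeR test over 33 clusters gave 2.18-fold more in the CMS cohort (log2 1.13, SE 0.28, fold interval 1.40 to 3.42, adjusted p = 0.0475), in a contrast where 12.1% of clusters were called. The call was lost when any 1 of the 8 libraries was left out (adjusted p = 0.0764 to 0.136, log2 1.03 to 1.21) and with DESeq2 (adjusted p = 0.0892), and kept with limma (adjusted p = 0.00819). Pericytes_1 differed by -0.30 (edgeR adjusted p = 0.396).

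Sex and stress did not pass for Pericytes_2. The log2 difference was -0.71 for female against male (SE 0.32, edgeR adjusted p = 0.381) and 0.38 for stressed against control (SE 0.34, adjusted p = 0.953). Of 33 clusters 0% were called in each contrast, with 4 and 0 at p under 0.05 before adjustment. DESeq2 called 3 and 0, and limma 0 and 0.

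The 2 clusters differed modestly in depth and genes and more in doublet score, as a description of pooled cells. Median UMIs were 1493 in Pericytes_1 and 1647 in Pericytes_2, yet median genes were 931 and 891. Genes per 100 UMIs, each summed over the cells of a cluster, were 61.3 and 55.6. Mitochondrial medians were 2.52% and 2.63%. Above 10% mitochondrial were 33 of 1369 Pericytes_1 and 0 of 63 Pericytes_2 cells. At a share of 2.30% over all pericytes, 63 cells are too few to show a difference. The doublet score was 0 in 39.7% of Pericytes_1 and 69.8% of Pericytes_2, and above 2 in 12.2% and 30.2%. Pericytes_2 cells thus lay at both ends of that score, and the part of doublets in this cluster was not tested.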

How the data were processed

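Per the labels' protocols, PVN tissue was digested with papain and made into 10x Genomics 3' v2 single-cell libraries. The authors used Cell Ranger 3.0.2 and 3.1.0, the mm10 genome and Seurat 3.1.3, according to the submitters' processing notes; the version used for a given library is not stated. Each cell of the deposited table has UMIs and genes as counts, the mitochondrial share as a fraction (printed here as percent) and doublet, S and G2/M scores, made with tools that the labels do not state. Experiment, sex and condition columns place each cell in its library, the experiment named after acute restraint being the baseline cohort (0 cells unmapped). No cells were removed, doublets included.

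Cell numbers by type were tested over libraries with edgeR 4.0.16 (quasi-likelihood, no trend; all cells, or Endothelial cells, as library size; types of at least 80 cells) in R 4.3.3, with Benjamini-Hochberg adjustment. The prior degrees of freedom were 71.9 for shares, 2.68 for the ratio and infinite for interactions in the share, so intervals of shares rest largely on spread pooled over types. SEs were taken from the p-value and its degrees of freedom. Library medians (means for the doublet score) were tested with limma 3.58.1, for types of 10 or more cells in every library. Types within libraries were compared by exact sign-flip permutation of 8 differences, and correlations by exact permutation, with scipy 1.17.1. The scripts were tested on simulated data. Alternatives were DESeq2 1.42.0, TMM factors, limma on log2 odds (pseudocount 0.5), cell filters (UMIs, mitochondrial percent, doublet score), other denominators and leaving out each library. Types named are Pericytes, Endothelial, Vascular and Mixed_Endothelial, clusters inside Pericytes, and neighbours in a rank. The Endothelial clusters and the cell with the high G2/M score fall outside that rule and were chosen after their values were seen. Tests of Pericytes_2, the share at doublet score 0 and the ratio at 1000 to 2000 UMIs or without Pericytes_2 were added after seeing the data. The pericytes, lists and tests were chosen with earlier results of these data known.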

Additional observations from a re-analysis of the deposited data

Results flagged for a closer look

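The female CMS ARS library had a pericyte share of 4.82%, far from the other CMS cohort libraries (3.22% to 3.38%). The male CMS ARS library had the lowest mean pericyte doublet score of the male libraries, 0.663. Median G2/M scores lay apart in the female baseline control among controls (-0.00738), the male baseline ARS among males (-0.00582) and the male baseline control among baseline libraries (-0.0157). Of 84 sets of libraries and measures checked, 5 held such a value, and chance gives about 1 in 20.

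The stressed minus control difference in mean pericyte doublet score was positive in both baseline pairs (0.0821 in females, 0.00505 in males) and negative in both CMS cohort pairs (-0.275 and -0.497). The percent of pericytes with a doublet score of 0 moved the other way, by -1.80 and -5.01 points in baseline females and males and by 12.8 and 27.5 points in CMS cohort females and males. These differences between cohorts were not tested.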

How the results depend on the processing

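The pericyte share and ratio passed no test under any alternative run. Keeping only cells with a doublet score of at most 1 moved the pooled pericyte share to 5.13% and the ratio to 62.4 per 100 Endothelial cells, and turned UMIs (0.14) and genes (0.075) against Endothelial cells, the cohort difference in share (0.031), and the sex by stress terms of share (-0.22) and ratio (-0.55). Without cells over 10% mitochondrial the pooled share was 4.76%. In the window of 1000 to 2000 UMIs the pooled ratio was 107, genes against Endothelial cells differed by -0.052, and the ratio's terms were -0.45 (cohort by stress) and -0.0078 (sex by stress); without cells under 1000 UMIs the former was -0.080. Counting Mixed_Endothelial and Vascular cells in the denominator gave a cohort difference in ratio of 0.030. The sex difference in share was -0.073 with DESeq2 and -0.016 with TMM factors. Taken relative to all cells of the library, UMIs differed by 0.11 (cohort) and 0.080 (sex), genes by 0.079 and 0.032, and mitochondrial percent by -0.459 (cohort, adjusted p = 0.0398) and 0.00859 (sex). The cohort difference in mitochondrial percent was -0.206 with trend and robust moderation (adjusted p = 0.0330). Means in place of medians gave mitochondrial differences of -0.0311 against Mixed_Endothelial cells, 0.157 by sex and -0.0251 by stress. The correlation with Vascular cells was 0.795 without 2 libraries. The Pericytes_2 cohort difference was 1.13 with DESeq2 and 1.09 by sign-flip permutation. The cause of these changes was not tested.

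Leaving out each library gave 1.03 to 1.21 for Pericytes_2 by cohort, -0.10 to 0.0069 for UMIs by sex and -0.0567 to 0.0485 for mitochondrial percent by sex. For the share it gave -0.13 to 0.13 by sex, -0.084 to 0.57 for cohort by stress and -0.17 to 0.53 for sex by stress. For the ratio it gave -0.084 to 0.088 for sex by stress. Vascular and Mixed_Endothelial cells were too few in the UMI window, and Mixed_Endothelial cells too few at a doublet score of at most 1, for a value. The labels give no replicate numbers; with the matched pair of libraries as a block, no pericyte call in UMIs, genes, mitochondrial percent or doublet score changed (mitochondrial percent by cohort, adjusted p = 0.0831). The numbers of cells, 119 to 240 pericytes and 4 to 12 Pericytes_2 cells per library, limit what these results can show.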
